A study of Mus musculus with 12 samples.

Results

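The genes described here are 6 regulators of mRNA turnover that bind the 3′ untranslated region (3′ UTR) of short-lived transcripts: Zfp36, Zfp36l1 and Zfp36l2 (the ZFP36 family), Zc3h12a (Regnase-1), Rc3h1 (Roquin-1) and Elavl1 (HuR). They were named by gene symbol, with earlier results of these data known, and they are 6 of the 28852 genes in the table. Together they have 14 of its 84846 isoforms. All 6 passed the filter on low values, with at least 5.86 FPKM (fragments per kilobase scaled to library depth, a level per length) in every library, and they are 6 of 12862 genes tested.

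The cells were bone marrow-derived mast cells (BMMCs), grown from BALB/c mouse femurs, and every group shared a culture medium with interleukin-3 (IL-3) and stem cell factor. Poly(A) RNA was sequenced from 12 libraries in 4 groups of 3. The blank group was the untreated control, the SiO2 group received silica nanoparticles, the DNP-HSA group received the antigen dinitrophenyl-human serum albumin, and the DNP-HSA+SiO2 group received both. For the sequenced cells neither dose nor time is stated, nor whether they had been sensitized with anti-DNP IgE, which DNP-HSA cross-links on the high-affinity IgE receptor. Each group holds 1 library without a number, called unnumbered here, and libraries numbered 1 and 2. Nothing states that they came from separate cultures or mice, so a p-value here speaks only to how far these libraries differ from each other.

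Proteins of the ZFP36 family carry CCCH zinc fingers that bind AU-rich elements, runs built on UAUUUAU in the 3′ UTR, and recruit the CCR4-NOT complex, which shortens the poly(A) tail and starts decay. Regnase-1 is an endoribonuclease and Roquin-1 an RNA-binding protein, and both act on stem-loops in the 3′ UTR of inflammatory mRNAs. HuR also binds AU-rich elements but is known mostly for stabilizing its targets. In mast cells, receptor signals turn on cytokine genes such as Tnf whose mRNAs carry AU-rich elements, and the ZFP36 and Regnase proteins limit how long such mRNAs last.

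The mast cell genes Cpa3, Kit and Fcer1a were high in every library, at 7353 to 9207, 852 to 1513 and 2311 to 3253 FPKM. Others of the mast cell markers examined were lower or varied more. Mcpt4 was at 0.398 to 11.5 FPKM, Mitf at 15.4 to 27.0, Hdc at 5.88 to 366 and Gata2 at 110 to 658. The libraries held 55737606 to 76718065 estimated counts, of which 2.83% to 6.06% fell on mitochondrial genes. The unnumbered libraries stood apart. The summed level of 8 macrophage, monocyte and neutrophil markers was 8.60 to 9.80 FPKM in the unnumbered libraries, 19.0 to 36.3 in blank 2, SiO2 2, DNP-HSA 1 and DNP-HSA+SiO2 1, and 85.2 to 116 in the remaining 4. Every group thus held 1 library of each range. Lyz2 made up most of this sum in the numbered libraries, and not all 8 markers followed it. Adgre1 was higher in the unnumbered libraries, at 3.94 to 5.56 FPKM against 0.542 to 2.61 in the numbered ones. The basophil gene Mcpt8 was higher there too, at 20.7 to 24.3 FPKM against 0.774 to 5.32. The part of these cell types in the results was not tested. Results are given below with all libraries and, for the members and for the lists and their main genes where the values moved, also without the 4 unnumbered ones. In bulk RNA, fewer cells of a type and less of a transcript per cell cannot be told apart.

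The AU-rich elements of the members are shown first, because the 3 ZFP36 family genes code for proteins that bind this element and carry it in their own transcripts. The heptamer searched was TATTTAT, on the transcript strand, in the 3′ UTR of the coding isoform with the highest FPKM (GENCODE M21 transcripts, GRCm38). Zfp36 held 3 heptamers in 774 bases, Zfp36l1 held 3 in 1835 and Zfp36l2 held 3 in 1822. Each window runs 5′ to 3′ on the minus strand of the genome, in order from the stop codon, with the heptamer in capitals.
Zfp36, chr7:28376967-28376993: gtgggcccttTATTTATgacgacttta
Zfp36, chr7:28376952-28376978: atgacgacttTATTTATtgtattaaga
Zfp36, chr7:28376927-28376953: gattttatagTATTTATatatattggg
Zfp36l1, chr12:80108423-80108449: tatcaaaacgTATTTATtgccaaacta
Zfp36l1, chr12:80108382-80108408: attttgttcaTATTTATcgggatgaca
Zfp36l1, chr12:80108168-80108194: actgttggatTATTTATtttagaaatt
Zfp36l2, chr17:84184915-84184941: ctatttaactTATTTATtatcttgtga
Zfp36l2, chr17:84184867-84184893: gtccatactgTATTTATcgagtatgat
Zfp36l2, chr17:84184681-84184707: ttgtatgtaaTATTTATttcattaatt
In each of the 3 genes, 1 of the matches also completed the nonamer TTATTTATT. Elavl1 held 8 heptamers in 4218 bases, Rc3h1 held 2 in 7181, and Zc3h12a held none in 856. A window from Elavl1, also on the minus strand, and another from Rc3h1, on the plus strand, are printed for comparison.
Elavl1, chr8:4285789-4285815: tcatgaaaatTATTTATttatttattt
Rc3h1, chr1:160970044-160970070: ctttactcatTATTTATtgagatgagg
Of 10433 genes with a 3′ UTR, 2865 (27.5%) held the heptamer and 756 (7.25%) the nonamer. The share grew with length, from 19.8% of 3′ UTRs over 500 and up to 1000 bases to 32.3% of those over 1000 and up to 2000 and 69.2% of those over 4000. A match is a description of the letters, not a measured binding site.

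For scale, 2 cytokine transcripts known as targets of ZFP36 proteins carry a denser element. Tnf held 8 heptamers in a 3′ UTR of 764 bases and Csf2 held 9 in 317, and the stretch of 30 bases with the most of them is printed for each, with every heptamer in capitals (minus strand, neighbouring heptamers overlapping).
Tnf, chr17:35199678-35199707: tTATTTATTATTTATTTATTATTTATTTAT
Csf2, chr11:54247328-54247357: ttttaaaTATTTATTTATTTATTTATTTAT
Among reported targets of ZFP36 proteins that were tested here, 10 of 13 (76.9%) held the heptamer, and among those of Regnase-1 or Roquin-1 6 of 9 (66.7%) did.

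Zfp36, which codes for tristetraprolin, lies on chromosome 7 (28376784 to 28380253, minus strand, ENSMUSG00000044786). Its level in blank libraries was 23.9, 15.9 and 151 CPM (estimated counts relative to library size, scaled by the trimmed mean of M-values) in the unnumbered library, library 1 and library 2, the order used throughout. In SiO2 libraries it was 408, 153 and 279.9 CPM. In DNP-HSA libraries it was 351, 115 and 373, and in DNP-HSA+SiO2 libraries 591, 244 and 170.0. Library 2 of the blank group stood near the lowest treated libraries and the other blank libraries far below all of them. The SiO2 and DNP-HSA+SiO2 libraries lay above every blank library, by only 153 against 151 CPM for SiO2 1, and DNP-HSA overlapped the blank group.

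Group means of Zfp36 were 63.7 ± 76.0 CPM (SD, n = 3) in blank, 280.2 ± 127 in SiO2, 279 ± 143 in DNP-HSA and 335 ± 225 in DNP-HSA+SiO2. Against blank, the log2 change was 2.14 (standard error 0.85) in SiO2, 2.13 (0.85) in DNP-HSA and 2.40 (0.86) in DNP-HSA+SiO2. None passed the test, with Benjamini-Hochberg adjusted p of 0.521, 0.542 and 0.276 by edgeR's quasi-likelihood F-test over 12862 genes. Blank 2 was far from the other blank libraries. Without it the 3 log2 changes were 3.82, 3.81 and 4.08, still with adjusted p of 0.254, 0.164 and 0.118, and without the 4 unnumbered libraries they were 1.38, 1.56 and 1.33. On the FPKM scale SiO2 and DNP-HSA+SiO2 overlapped the blank group too, since blank 2 held 56.1 FPKM against 51.6 in SiO2 1 and 55.6 in DNP-HSA+SiO2 2.

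The 2 isoforms of Zfp36 separated blank 2 from the treated libraries. The spliced model of 2 exons (ENSMUST00000051241) held 7.77, 5.31 and 30.4 FPKM in blank, 94.2, 37.1 and 75.9 in SiO2, 113, 31.8 and 97.7 in DNP-HSA and 139, 63.3 and 52.1 in DNP-HSA+SiO2. For this model all 9 treated libraries lay above all blank libraries, though 31.8 and 30.4 FPKM are close. The other model (ENSMUST00000209061, 28376791 to 28379255) is a single exon that spans the intron of the first. It took 45.8% of the gene's FPKM in blank 2, against 17.4% and 9.44% in the other blank libraries, 17.3% to 28.0% in SiO2, 3.82% to 11.2% in DNP-HSA and 6.21% to 12.1% in DNP-HSA+SiO2. All SiO2 libraries were thus above all libraries that received antigen in this share, which was compared by values alone and not tested. An antisense gene, Gm44710, overlaps Zfp36, and its level was 0 to 0.232 FPKM. Zfp36l1 and Zfp36l2 are also overlapped on the opposite strand, by Gm26669 (4967 bases) and AC132455.1 (2192 bases). No level was taken for either of these genes, and whether reads were assigned by strand is not stated.

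Sites searched before the RefSeq start of Zfp36 (GRCm38.p6, minus strand, 250 bases) are printed because Egr1, whose protein binds the EGR motif, was among the genes nearest to Zfp36 in pattern. The window lies inside the first exon of the longer GENCODE model, so only the 3 stretches of 30 bases that hold a match are given, with the match in capitals.
Zfp36 EGR motif, chr7:28379314-28379343: gagctacgccGCGGGGGCGcgtcccggaag
Zfp36 CArG box, chr7:28379267-28379296: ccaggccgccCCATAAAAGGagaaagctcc
Zfp36 GAS motif, chr7:28379229-28379258: gccacagcctgacTTCTGCGAAccgacagt
The EGR match began 105 bases before the start, the CArG box 58 and the GAS match 17. The letters searched were GCGNGGGCG for EGR, found in 4.70% of 32851 windows of the same length on either strand, TTCNNNGAA for GAS (7.02%) and the CArG box, bound by serum response factor (1.47%).

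Zfp36l1 (chromosome 12, 80107754 to 80113013, minus strand, ENSMUSG00000021127) codes for a paralog that binds the same element. Its blank libraries held 129, 129.6 and 201 CPM. SiO2 libraries held 1156, 391 and 357 CPM, DNP-HSA libraries 904, 467 and 873, and DNP-HSA+SiO2 libraries 1505, 636 and 634. All 9 treated libraries lay above all blank libraries, and the lowest of them, 357, stood well clear of the highest blank value. The unnumbered library was the highest of each treated group but the lowest of the blank group.

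The means of Zfp36l1 were 153 ± 41.3 CPM (SD, n = 3) in blank, 635 ± 452 in SiO2, 748 ± 244 in DNP-HSA and 925 ± 503 in DNP-HSA+SiO2. The log2 change against blank was 2.05 (standard error 0.53) in SiO2, 2.29 (0.53) in DNP-HSA and 2.59 (0.54) in DNP-HSA+SiO2, with 95% intervals of 0.89 to 3.21, 1.12 to 3.46 and 1.41 to 3.78. Adjusted p by edgeR was 0.228, 0.140 and 0.0608, so none passed, and DNP-HSA+SiO2 against blank was the closest of the members to the threshold of 0.05. Its unadjusted p there was 0.000544. Leaving out SiO2 unnumbered changed that call. The log2 change was then still 2.59 and the adjusted p 0.0168, and DNP-HSA against blank reached 0.0359 with a log2 change of 2.29, while SiO2 against blank was at 1.296 (adjusted p 0.914). Without the 4 unnumbered libraries the 3 changes were 1.18, 2.03 and 1.95, with adjusted p of 0.776, 0.0936 and 0.117.

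The 250 bases before the start of Zfp36l1 (RefSeq, GRCm38.p6, minus strand, chr12:80113014-80113263) are shown because it had the lowest p-values of the members against blank. The capitals mark 1 match to the AP-1 motif TGANTCA, 129 bases before the start.
Zfp36l1 promoter: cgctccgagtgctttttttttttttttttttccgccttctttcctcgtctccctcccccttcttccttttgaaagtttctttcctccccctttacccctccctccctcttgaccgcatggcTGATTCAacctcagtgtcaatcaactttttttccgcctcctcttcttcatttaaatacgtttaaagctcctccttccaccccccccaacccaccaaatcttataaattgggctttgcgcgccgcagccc
That motif was found in 6.75% of windows of this length. In the same window Rc3h1 also held 1 match to it, 133 bases before the start, Zc3h12a and Elavl1 held none of the 6 motifs searched (EGR, AP-1, the CRE motif TGACGTCA, GAS, the CArG box and the NF-κB motif), and no window was matched for Zfp36l2.

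Zfp36l2 (chromosome 17, 84183931 to 84187947, minus strand, ENSMUSG00000045817), the third paralog, had the highest mean FPKM of the 6 in every group, though Zfp36l1 exceeded it in SiO2 unnumbered (295 against 277 FPKM) and DNP-HSA+SiO2 unnumbered (357 against 330.2). Blank libraries held 436, 705 and 1032 CPM, a wide range of its own. SiO2 libraries held 1283, 961 and 1055 CPM, DNP-HSA libraries 1407, 1162 and 1689.5, and DNP-HSA+SiO2 libraries 1642, 1450.5 and 1356. The DNP-HSA and DNP-HSA+SiO2 libraries lay above all blank libraries, and SiO2 overlapped them. Means were 724 ± 298 CPM (SD, n = 3) in blank, 1099 ± 166 in SiO2, 1419.5 ± 264 in DNP-HSA and 1483 ± 146 in DNP-HSA+SiO2. The log2 change was 0.60 (standard error 0.30), 0.97 (0.30) and 1.03 (0.30), with adjusted p of 0.669, 0.330 and 0.177 by edgeR, so it too passed in no comparison. Without the unnumbered libraries, of which that of the blank group was the lowest of all 12, the changes were 0.22, 0.73 and 0.70. In FPKM, DNP-HSA 1 at 283 fell just below blank 2 at 286, so only DNP-HSA+SiO2 stayed clear of the blank group on that scale. The gene has 1 isoform, so its CPM and FPKM differ between libraries only by library scaling.

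**Figure D1:**
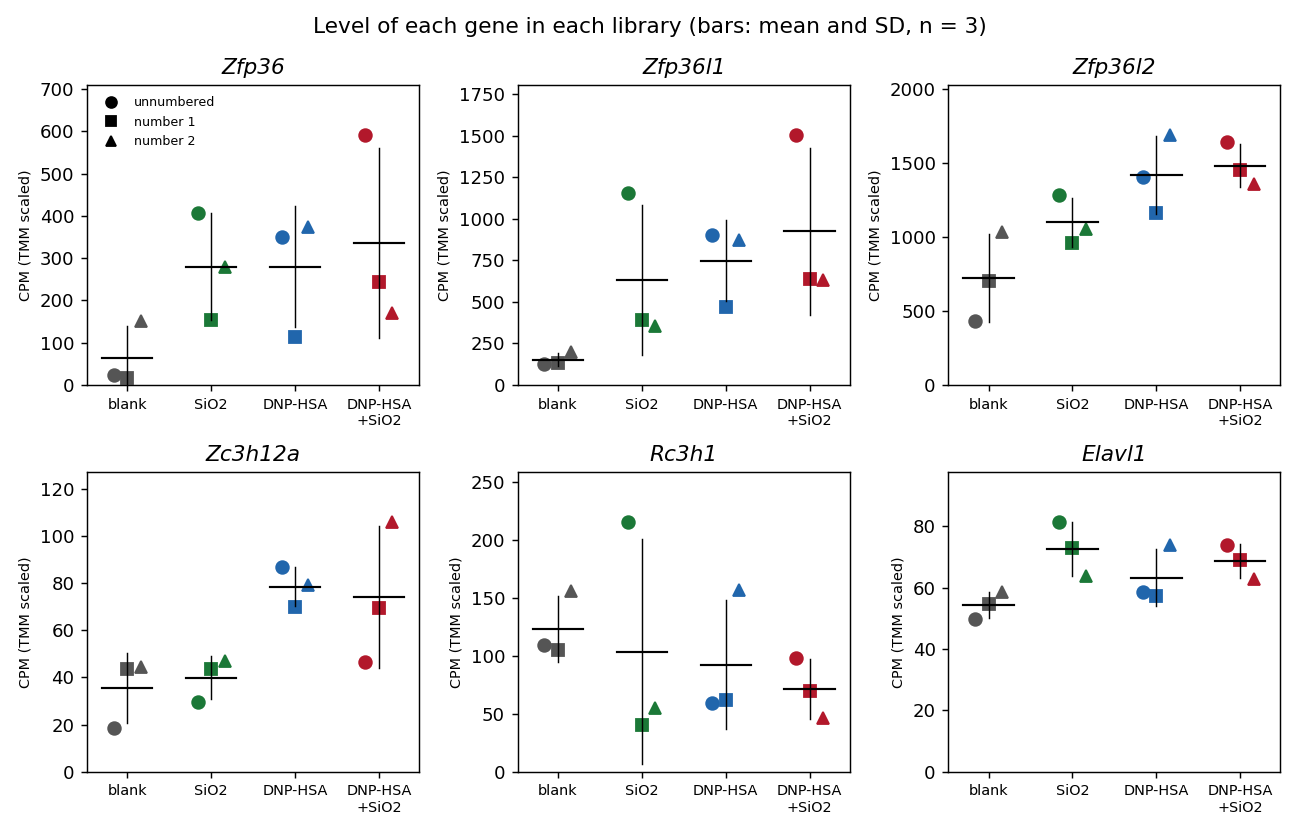
Level of each of the 6 genes in every library, in CPM on a linear axis from 0, for blank, SiO2, DNP-HSA and DNP-HSA+SiO2 (circles unnumbered libraries, squares library 1, triangles library 2, horizontal bars group means, vertical bars SD cut at 0). Zfp36l1 shows all treated libraries, from 357 CPM, above the blank libraries, at most 201, while Rc3h1 shows the groups mixed.

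Zc3h12a (chromosome 4, 125118423 to 125127840, minus strand, ENSMUSG00000042677) codes for Regnase-1, which cleaves stem-loop mRNAs such as that of interleukin-6. Its means in both antigen groups were above those in blank and SiO2. Blank libraries held 18.4, 43.5 and 44.4 CPM and SiO2 libraries 29.4, 43.6 and 46.9, with the unnumbered libraries the lowest of both groups. DNP-HSA libraries held 86.7, 69.8 and 79.1 CPM and DNP-HSA+SiO2 libraries 46.6, 69.6 and 106. DNP-HSA lay above all blank and all SiO2 libraries. DNP-HSA+SiO2 lay above all blank libraries by 46.6 against 44.4 and overlapped SiO2 by 46.6 against 46.9.

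The means of Zc3h12a were 35.4 ± 14.8 CPM (SD, n = 3) in blank, 39.9 ± 9.29 in SiO2, 78.5 ± 8.44 in DNP-HSA and 74.0 ± 30.0 in DNP-HSA+SiO2. Against blank, the log2 change was 0.17 (standard error 0.36, adjusted p 0.972) in SiO2, 1.15 (0.37, 0.352) in DNP-HSA and 1.06 (0.37, 0.249) in DNP-HSA+SiO2. DNP-HSA exceeded SiO2 by 0.98 (95% interval 0.17 to 1.78, edgeR unadjusted p 0.022, where 0.568% of all genes were higher at an unadjusted p under 0.05), and DNP-HSA+SiO2 exceeded SiO2 by 0.89 (0.09 to 1.69, unadjusted p 0.033, 0.397% of all genes). Neither passed after adjustment over all genes (1.0 for both). DNP-HSA+SiO2 and DNP-HSA differed by -0.08 (-0.88 to 0.71). Without the unnumbered libraries, the lowest of their group in blank, SiO2 and DNP-HSA+SiO2, the changes against blank were 0.04, 0.77 and 1.01. In FPKM DNP-HSA+SiO2 overlapped the blank group, with 12.4 in its unnumbered library against up to 18.1. A retained-intron model of the gene took 3.53% to 20.1% of its FPKM, with blank 2 and SiO2 2 the highest at 17.4% and 20.1%.

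Rc3h1 (chromosome 1, 160906418 to 160974978, plus strand, ENSMUSG00000040423) codes for Roquin-1, which recruits CCR4-NOT to stem-loops. It was the only member with a lower mean CPM in every treated group. Blank libraries held 109, 105 and 156 CPM, SiO2 libraries 215, 40.1 and 55.0, DNP-HSA libraries 58.9, 61.8 and 156, and DNP-HSA+SiO2 libraries 97.9, 69.9 and 46.5. The last group lay below all blank libraries, and the SiO2 libraries ranged from the lowest to the highest value of all 12. Means were 123 ± 28.4 CPM (SD, n = 3), 104 ± 97.2, 92.3 ± 55.5 and 71.4 ± 25.8. The log2 change against blank was -0.25 (standard error 0.60) in SiO2, -0.42 (0.60) in DNP-HSA and -0.79 (0.60, unadjusted p 0.218 and adjusted p 0.741 by edgeR) in DNP-HSA+SiO2. Without the unnumbered libraries these were -1.45, -0.25 and -1.15, on the same scale.

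The spread of Rc3h1 went with the isoform to which the authors' pipeline assigned it. A coding model of 3476 bases (ENSMUST00000035911) was listed at 0 in 5 libraries, all 3 of blank, SiO2 unnumbered and DNP-HSA 2, and took 48.3% to 88.4% of the gene's FPKM in the remaining 7. The coding model of 11006 bases (ENSMUST00000161609) took 96.9% to 100% in those 5 libraries. An estimated count is FPKM times length, so a library given to the shorter model has fewer counts at the same FPKM. Per length the groups were close, at 11.5 ± 2.08 FPKM (SD, n = 3) in blank, 9.98 ± 4.30 in SiO2, 10.5 ± 2.01 in DNP-HSA and 11.3 ± 3.96 in DNP-HSA+SiO2, and their order differed from that in CPM. No direction can be given for Rc3h1 from these values.

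**Figure D2:**
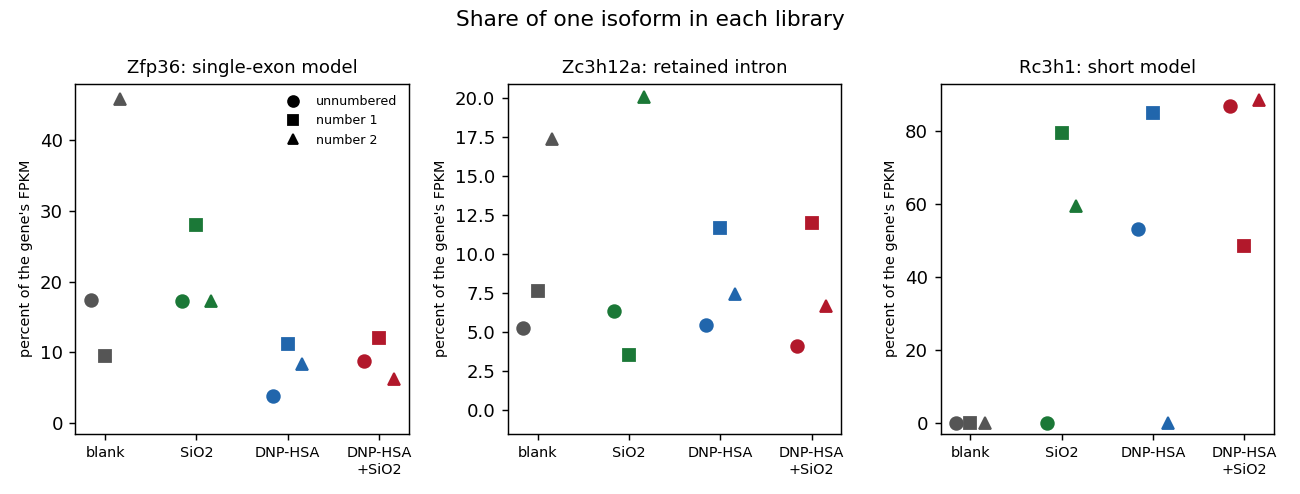
Share of the gene's FPKM, in percent, of the single-exon model of Zfp36, the retained-intron model of Zc3h12a and the shorter coding model of Rc3h1, for each library of the 4 groups. Blank 2 holds the highest share for Zfp36 (45.8%), and the Rc3h1 model is at 0 in 5 libraries and between 48.3% and 88.4% in the others.

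Elavl1 (chromosome 8, 4285382 to 4325413, minus strand, ENSMUSG00000040028), which codes for HuR, stayed within a narrow range. Blank libraries held 49.8, 54.7 and 58.5 CPM, SiO2 libraries 81.5, 72.9 and 64.0, DNP-HSA libraries 58.6, 57.3 and 74.0, and DNP-HSA+SiO2 libraries 74.0, 69.2 and 63.0. SiO2 and DNP-HSA+SiO2 lay above all blank libraries. Means were 54.4 ± 4.37 CPM (SD, n = 3), 72.8 ± 8.79, 63.3 ± 9.30 and 68.7 ± 5.54, and the log2 change against blank was 0.42 (standard error 0.16, adjusted p 0.494 by edgeR) in SiO2, 0.22 in DNP-HSA and 0.34 (adjusted p 0.441) in DNP-HSA+SiO2. On the FPKM scale the group means were close, at 11.3, 11.8, 10.9 and 10.7 FPKM, and the limma fit of log2(FPKM + 1) gave 0.04, -0.07 and -0.08. Its shorter coding model (ENSMUST00000209010, 2317 bases against 5743) was at 0 in SiO2 2, DNP-HSA unnumbered and DNP-HSA+SiO2 unnumbered. In the other libraries it took 10.8% to 34.9% of the gene's FPKM. As for Rc3h1, this assignment enters the CPM of Elavl1, and its part was not tested. Ccl25, which overlaps Elavl1 by 204 bases on the opposite strand, was at 1.44 to 4.14 FPKM. Without the unnumbered libraries the log2 changes were 0.27, 0.22 and 0.23.

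The fit by limma on log2(FPKM + 1) gave lower changes for most genes than edgeR did on counts, and the members did not follow by a common amount. On that scale the median change of all genes against blank was -0.23 in SiO2, -0.22 in DNP-HSA and -0.30 in DNP-HSA+SiO2, and 23.3%, 20.6% and 18.7% of genes were higher, against 48.4%, 50.8% and 48.8% by edgeR. Zfp36 was at 2.37, 2.28 and 2.43, Zfp36l1 at 1.58, 1.98 and 2.13, Zfp36l2 at 0.41, 0.78 and 0.76 and Zc3h12a at -0.01, 0.91 and 0.67. Zfp36l1 passed there in DNP-HSA+SiO2 against blank, with an adjusted p of 0.047 by limma. The scaling factors used by edgeR, which were not applied to FPKM, were 1.118 to 1.223 in blank libraries and 0.8083 to 1.059 in treated ones. They thus differed by group, and their part in the gap between the fits was not tested.

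Counted over the members, none of 6 passed at an adjusted p under 0.05 by edgeR in any of the 7 comparisons. The share of all 12862 genes that passed in either direction was 0.0622% in SiO2, 0.218% in DNP-HSA and 0.575% in DNP-HSA+SiO2 against blank, so few genes of any kind passed. It was 0.0% in the 3 comparisons between treated groups, in which 83 to 158 genes had an unadjusted p under 0.05 (0.645% in DNP-HSA+SiO2 against DNP-HSA), and 0.0233% for the interaction. At an unadjusted p under 0.05, 3 members were higher in SiO2 (5.78% of all genes), 4 in DNP-HSA (4.52%) and 4 in DNP-HSA+SiO2 (6.95%), and none was lower. DESeq2 called 1, 2 and 3 members against blank, all higher, and it also called many more genes in all, 258, 253 and 444 higher. Zfp36l1 was called in each (adjusted p 0.00393, 0.000622 and 2.78e-05), Zfp36l2 in DNP-HSA (0.0491) and DNP-HSA+SiO2 (0.017), and Zfp36 in DNP-HSA+SiO2 (0.0351). The limma fit, with a pseudocount of 1 or 0.1, called 1 member, Zfp36l1 in DNP-HSA+SiO2 against blank. Of all 12862 genes it called 78 or 94 higher and 12 or 9 lower there. Neither tool called a member in the other 4 comparisons.

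In CPM, the libraries did not overlap the blank group, on the higher side, for 3 members in SiO2 (Zfp36, Zfp36l1 and Elavl1), 3 in DNP-HSA (Zfp36l1, Zfp36l2 and Zc3h12a) and 5 in DNP-HSA+SiO2 (all but Rc3h1). Over all genes tested the shares were 7.85%, 6.94% and 8.58%. On the FPKM scale the share of all genes was not taken, so the CPM shares are no background for it. Fewer members stayed clear of blank there. They were Zfp36l1 in SiO2, Zfp36l1 and Zc3h12a in DNP-HSA, and Zfp36l1 and Zfp36l2 in DNP-HSA+SiO2. Rc3h1 was the 1 member that lay below blank without overlap in CPM, in DNP-HSA+SiO2, against 8.88% of all genes. Per length it overlapped blank there, at 8.39 to 15.8 FPKM against 9.97 to 13.9. The median log2 change of the 6 members was 0.51, 1.06 and 1.05, and that of all genes was -0.01, 0.01 and -0.01. The 3 comparisons share the blank libraries, so they are not independent.

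**Figure D3:**
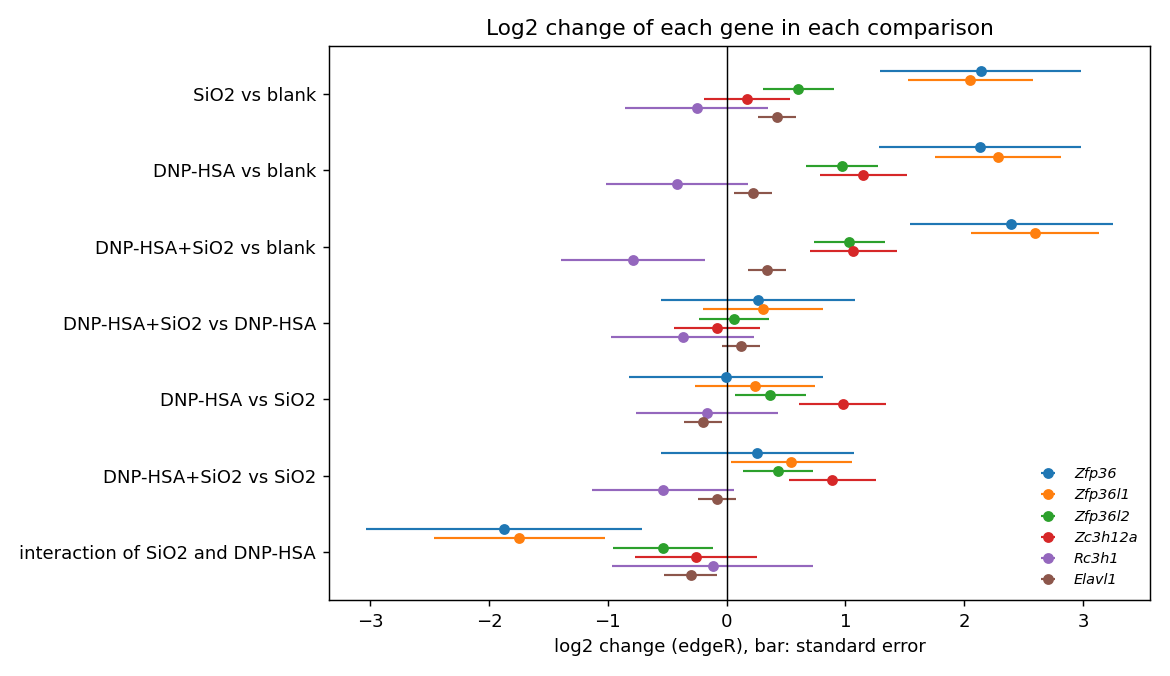
Log2 change of each member in the 7 comparisons from edgeR's fit over all 12 libraries, with bars for 1 standard error. The ZFP36 family and Zc3h12a lie above 0 in DNP-HSA and DNP-HSA+SiO2 against blank (up to 2.59 for Zfp36l1), and no value passed at an adjusted p under 0.05.

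Whether SiO2 changed the response to antigen was asked by the comparison of DNP-HSA+SiO2 with DNP-HSA and by the interaction, the change in excess of the sum of both treatments alone. DNP-HSA+SiO2 differed from DNP-HSA by 0.26 for Zfp36 (95% interval -1.53 to 2.06), 0.31 for Zfp36l1 (-0.81 to 1.42), 0.06 for Zfp36l2 (-0.59 to 0.72), -0.37 for Rc3h1 (-1.69 to 0.95) and 0.12 for Elavl1 (-0.23 to 0.47) on the log2 scale. The intervals were wide for Zfp36, Zfp36l1 and Rc3h1 and lay within 1 log2 unit of 0 for Zfp36l2 and Elavl1. The libraries of these groups overlapped for all 6 members, and 0.871% of all genes were higher and 1.03% lower without overlap.

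The interaction was negative for all 6 members by edgeR, though on the FPKM scale Rc3h1 was at 0.31, and the median was -0.42 against 0.00 over all genes. It was -1.88 (standard error 1.16, unadjusted p 0.135) for Zfp36 and -1.74 (0.72, unadjusted p 0.0344) for Zfp36l1, where 1.8% of all genes were lower at an unadjusted p under 0.05. Neither passed after adjustment (1.0 by edgeR). The means behind it were, for Zfp36l1, 635 CPM in SiO2, 748 in DNP-HSA and 925 in DNP-HSA+SiO2, from 153 in blank. Of the pairs of treated groups, libraries did not overlap only for Zfp36l2 between DNP-HSA+SiO2 and SiO2 (a log2 difference of 0.43, unadjusted p 0.176, 1.37% of genes) and for Zc3h12a between DNP-HSA and SiO2, given above (1.7% of genes).

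In order from the lowest group mean in CPM, Zfp36 ran blank, DNP-HSA, SiO2, DNP-HSA+SiO2. Both paralogs ran blank, SiO2, DNP-HSA, DNP-HSA+SiO2, and Zc3h12a ran blank, SiO2, DNP-HSA+SiO2, DNP-HSA. Elavl1 ran blank, DNP-HSA, DNP-HSA+SiO2, SiO2, and Rc3h1 ran DNP-HSA+SiO2, DNP-HSA, SiO2, blank. In FPKM only Zfp36l1 kept its order, and Rc3h1 ran SiO2, DNP-HSA, DNP-HSA+SiO2, blank. By edgeR no neighbours in the CPM orders differed at an adjusted p under 0.05, while DESeq2 called blank and SiO2, neighbours in the order of Zfp36l1 (adjusted p 0.00393).

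Per length, the 3 family genes can be set side by side. Their summed level was 189, 254 and 408 FPKM in blank, 687, 418 and 467 in SiO2, 770.0, 454 and 714 in DNP-HSA and 839.5, 578 and 595 in DNP-HSA+SiO2. All 9 treated libraries lay above all blank libraries, by 418 against 408 at the nearest. Zfp36l2 was the main family transcript in blank, with 70.4%, 80.3% and 70.1% of the sum, and its share was 40.4% to 59.2% in SiO2, 48.2% to 62.5% in DNP-HSA and 39.3% to 58.4% in DNP-HSA+SiO2, below every blank library. The share of Zfp36l1 was 16.1% to 24.6% in blank, 23.0% to 43.0% in SiO2, 29.6% to 36.6% in DNP-HSA and 29.9% to 42.6% in DNP-HSA+SiO2. The ratio of the family sum to Elavl1, both in FPKM, was 17.03 to 36.0 in blank and 32.7 to 91.2 in the treated libraries. These sums and shares were described by their ranges and not tested.

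**Figure D4:**
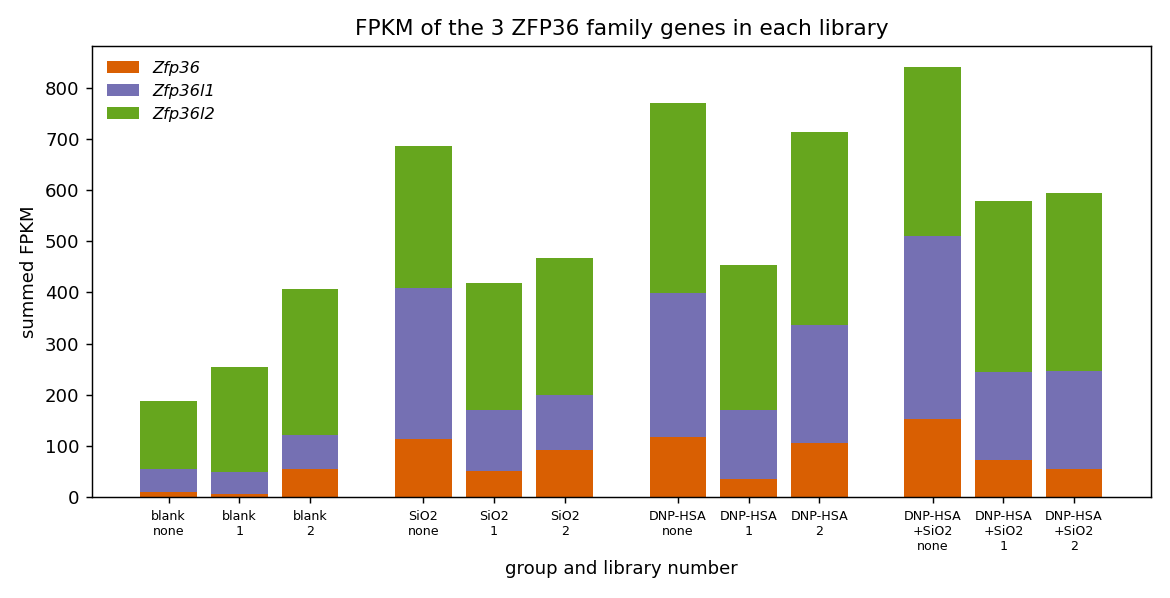
Summed FPKM of Zfp36, Zfp36l1 and Zfp36l2 in each of the 12 libraries, stacked by gene on an axis from 0. The blank libraries reach 189 to 408 FPKM, mostly Zfp36l2, and the treated libraries 418 to 839.5 with a share of Zfp36l2 below that of every blank library (at most 62.5% against at least 70.1%).

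The genes whose pattern over the 12 libraries was most like each member were ranked by Pearson's r of log2(CPM + 1). Nearest to Zfp36 were Ier2 (r = 0.970), Dusp1 (0.966), Egr1 (0.957), Jun (0.956) and Rgs1 (0.951), of which Ier2, Egr1 and Jun are immediate-early genes and Dusp1 is a phosphatase of MAP kinases. Zfp36l1 was most like Dnajb1 (0.986), Btg1 (0.984), Tagap (0.982), Nfkbiz (0.977) and Egr2 (0.969), and Zfp36l2 most like Ier2 (0.942), Cish (0.928), Tob1 (0.922), Junb (0.918) and Pnrc1 (0.909). For Zc3h12a they were Jund (0.912), Tnfaip3 (0.889), Rnf19b (0.881), Samd4b (0.870) and Adgre5 (0.866). Elavl1 was most like Ccno (0.962), Ramp3 (0.958), Rcan1 (0.946), Il1r2 (0.945) and Dgkd (0.944). Rc3h1 had lower values, with Slc25a35 (0.791), Tbpl1 (0.772), Mis12 (0.762), Lactb (0.734) and Snhg5 (0.706). Spearman's rho with the nearest gene was 0.937 for Zfp36, 0.993 for Zfp36l1, 0.902 for Zfp36l2, 0.825 for Zc3h12a, 0.958 for Elavl1 and 0.741 for Rc3h1. Leaving out the 2 libraries farthest from the member's median lowered many of these values. The r with the 5 genes was then 0.771 to 0.906 for Zfp36, with Egr1 the lowest, 0.945 to 0.979 for Zfp36l1, 0.606 (Junb) to 0.866 for Zfp36l2, 0.781 to 0.854 for Zc3h12a, 0.905 to 0.963 for Elavl1 and 0.466 (Snhg5) to 0.760 for Rc3h1. These values describe 12 libraries in which group and depth are shared, and they carry no test.

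Among the members, Zfp36 and Zfp36l1 had r = 0.896, Zfp36 and Zfp36l2 0.877, and Zfp36l1 and Zfp36l2 0.879. Without the 2 libraries farthest from the median of the first gene named, these were 0.790, 0.685 and 0.816. Zc3h12a had r = 0.416 with Zfp36, which turned to -0.209 without them, and 0.723 with Zfp36l2, and Rc3h1 ranged from -0.445 to 0.175 with the others.

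Of the decay machinery and its recruiters, 1 gene passed. Of 18 genes of the CCR4-NOT and PAN2-PAN3 deadenylases and their recruiters, 1 rose in DNP-HSA and in DNP-HSA+SiO2 against blank, none in SiO2, and none fell. At an unadjusted p under 0.05, 4, 4 and 5 of them were higher and 1, 0 and 1 lower in SiO2, DNP-HSA and DNP-HSA+SiO2. Of all 12862 genes, 744 (5.78%), 582 (4.52%) and 894 (6.95%) were higher at that p by edgeR. In either direction the counts were 1033, 949 and 1547. These values for all genes hold for the lists below as well. The gene that passed was Tob2, an antiproliferative protein that brings CCR4-NOT to mRNAs. Its blank libraries held 83.4, 98.2 and 95.4 CPM, SiO2 libraries 201, 221 and 176, DNP-HSA libraries 221, 280.1 and 382, and DNP-HSA+SiO2 libraries 261, 352 and 337, all treated above all blank. The log2 change was 1.67 (standard error 0.22, adjusted p 0.0165) in DNP-HSA and 1.78 (0.22, adjusted p 0.0107) in DNP-HSA+SiO2. Both calls were lost without any 1 of the blank libraries (adjusted p up to 0.137 and 0.0795), with log2 changes still at 1.60 or more. The first was also lost without DNP-HSA 1, DNP-HSA 2 or DNP-HSA+SiO2 1, and the second without DNP-HSA+SiO2 1 or without the 4 unnumbered libraries (0.0524). Its relatives Btg1, Btg2 and Tob1, which also bind CCR4-NOT, did not pass and are named after their values were seen. Btg1 had log2 changes of 1.29, 1.53 and 1.78 against blank (adjusted p 0.277, 0.140 and 0.0558 by edgeR), Btg2 of 4.39, 3.93 and 4.97 (0.494, 0.585 and 0.250) and Tob1 of 0.81, 1.06 and 1.13 (0.306, 0.127 and 0.0611). In all treated groups Btg2 was highest in the unnumbered library, at 1021, 609.5 and 1548 CPM against at most 199 in the numbered ones. The list's median change was -0.03, 0.01 and 0.07, near that of all genes, and DESeq2 called 2, 3 and 4 of its genes. Of all 12862 genes DESeq2 called 258, 253 and 444 higher and 19, 56 and 148 lower against blank.

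Of 17 genes of decapping and 5′ to 3′ decay and 15 of the RNA exosome, none passed by edgeR in any comparison. Their medians against blank lay between -0.14 and 0.01. At an unadjusted p under 0.05 against blank, no decapping gene was past the threshold in any group, and the exosome list had 1 lower in SiO2 and 1 each way in DNP-HSA+SiO2. DESeq2 called 1 of them, Exosc3, in DNP-HSA+SiO2, and limma called none. The largest changes were 0.86 for Lsm5 in SiO2 (adjusted p 0.667) and -0.47 for Dcp2, the decapping enzyme, in DNP-HSA+SiO2 (adjusted p 0.428), and -0.91 for Exosc6 in DNP-HSA (standard error 1.21, adjusted p 1.0) and -0.80 for Exosc4 in DNP-HSA+SiO2 (adjusted p 0.398).

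Other proteins that bind AU-rich or stem-loop elements, with close paralogs of the members, were represented by 14 tested genes of 19, none of which passed. Zc3h12c, a paralog of Zc3h12a, held 24.7, 14.7 and 18.9 CPM in blank, 314, 109.5 and 97.1 in SiO2, 54.6, 119 and 167 in DNP-HSA and 305, 167 and 35.5 in DNP-HSA+SiO2. Unlike Zc3h12a its SiO2 libraries lay above all blank libraries, and its log2 change there was 3.16 (standard error 0.75, adjusted p 0.164). It was 2.62 without the unnumbered libraries (adjusted p 0.582). The second largest change was -0.91 for Zc3h12b in SiO2 (adjusted p 0.695). The medians of this list were -0.05, -0.17 and -0.11 in the 3 groups against blank, and at an unadjusted p under 0.05 1 gene in each group was higher and 1, 1 and 2 were lower. DESeq2 called Zc3h12c in all 3 groups.

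Of 15 enzymes and adaptors that act on the members' proteins, among them the kinases and 14-3-3 proteins that act on tristetraprolin and the protease MALT1, which cuts Regnase-1 and Roquin-1, none passed, with medians of 0.31, 0.34 and 0.27. At an unadjusted p under 0.05, 2, 5 and 4 of them were higher (5.78%, 4.52% and 6.95% of all genes). Malt1 held 92.4, 63.2 and 97.6 CPM in blank, 614, 186 and 297 in SiO2, 198, 289.6 and 224 in DNP-HSA and 748, 433 and 153 in DNP-HSA+SiO2, so all treated libraries were above the blank ones. DESeq2 called it in SiO2 and DNP-HSA+SiO2. Its log2 change in DNP-HSA+SiO2 was 2.40 (standard error 0.56, adjusted p 0.0902), and that of Ywhaz, a 14-3-3 protein, was 1.12 (adjusted p 0.261). Without the unnumbered libraries, the highest for Malt1 in SiO2 and DNP-HSA+SiO2, that of Malt1 was 1.88 (adjusted p 0.336) and that of Ywhaz 1.18 (0.639), and 1, 4 and 2 genes of the list were higher at an unadjusted p under 0.05.

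Reported target mRNAs had the largest changes of the lists examined. None of 13 tested targets of ZFP36 proteins passed, and their median log2 changes were 3.498, 3.03 and 3.79. At an unadjusted p under 0.05, 10 in SiO2, 7 in DNP-HSA and 9 in DNP-HSA+SiO2 were higher (5.78%, 4.52% and 6.95% of all genes). Without the 4 unnumbered libraries the medians were 2.46, 3.07 and 2.83, with 8, 10 and 8 genes higher at that p and none passing. The largest change was in Il3, at 0 in all blank libraries. The filter took 1 FPKM in any 3 libraries, so Il3 entered only through treated libraries and its direction was fixed in advance. Csf2, nearly absent from blank, was close to that case, and the medians include both. Against a floor of 3 counts per library Il3 was higher by at least 8.93, 5.82 and 8.998 on the log2 scale of group means. Setting Il3 at that bound left the 3 medians as given. The values of Il3 were 52.1, 5.29 and 1.98 CPM in SiO2, 0, 0.0763 and 6.81 in DNP-HSA and 59.6, 2.82 and 0 in DNP-HSA+SiO2. Csf2 held 0.170, 0.169 and 0 CPM in blank, and 133, 4.25 and 0.872 in DNP-HSA+SiO2, with a fitted log2 change of 8.62 (standard error 2.53, adjusted p 0.181). That of Csf2 was 4.88 without the unnumbered libraries (adjusted p 0.636). Tnf, whose element is printed above and which is named after its values were seen, held 19.8, 21.2 and 32.0 CPM in blank, 6187, 806 and 601 in SiO2, 900.5, 112 and 1494 in DNP-HSA and 7744, 849 and 256 in DNP-HSA+SiO2. All treated libraries lay above all blank libraries, and the log2 changes of 6.70, 5.10 and 6.92 (adjusted p 0.162, 0.266 and 0.0883 by edgeR) were 4.73, 4.93 and 4.39 without the unnumbered libraries. In Il3, Csf2 and Tnf alike the unnumbered library held most of the group's CPM in SiO2 and DNP-HSA+SiO2. DESeq2 called 6, 6 and 8 of these 13 genes in the 3 groups, and the limma fit with a pseudocount of 1 called 0, 0 and 2. Of all 12862 genes that limma fit called 29, 44 and 78 higher and 1, 2 and 12 lower.

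Of 9 tested targets of Regnase-1 or Roquin-1, none rose in SiO2, 1 rose in DNP-HSA and 3 in DNP-HSA+SiO2 against blank, none fell, and the medians were 3.67, 3.91 and 4.56. Without the 4 unnumbered libraries the medians were 2.35, 3.39 and 3.54, and 0, 1 and 1 passed. Nfkbid, which codes for an inhibitor-like regulator of NF-κB, held 16.6, 7.54 and 14.01 CPM in blank, 896, 187 and 205 in SiO2, 867, 259.6 and 735 in DNP-HSA and 1441, 596 and 459.7 in DNP-HSA+SiO2. No treated library came near the blank values, and the log2 change was 5.61 (standard error 0.83, adjusted p 0.0279) in DNP-HSA and 6.03 (0.85, adjusted p 0.0192) in DNP-HSA+SiO2. Nfkbiz rose by 4.56 (0.83, adjusted p 0.044) and Il1b, the cytokine interleukin-1β, by 2.42 (0.46, adjusted p 0.0497) in DNP-HSA+SiO2. All 4 calls were lost without any 1 of the blank libraries, with adjusted p up to 0.240 and unchanged direction. Nfkbid in DNP-HSA was also lost without DNP-HSA 2 or DNP-HSA+SiO2 1. Nfkbiz passed in only 3 and Il1b in only 4 of the 12 fits that each left out 1 library, and without the 4 unnumbered libraries their adjusted p was 0.0917 and 0.214. DESeq2 called 7, 7 and 8 of the list in the 3 groups. Both target lists hold cytokine and NF-κB genes whose levels in these data were known when the lists were drawn up, and some genes stand in both, so the lists are no separate evidence.

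**Figure D5:**
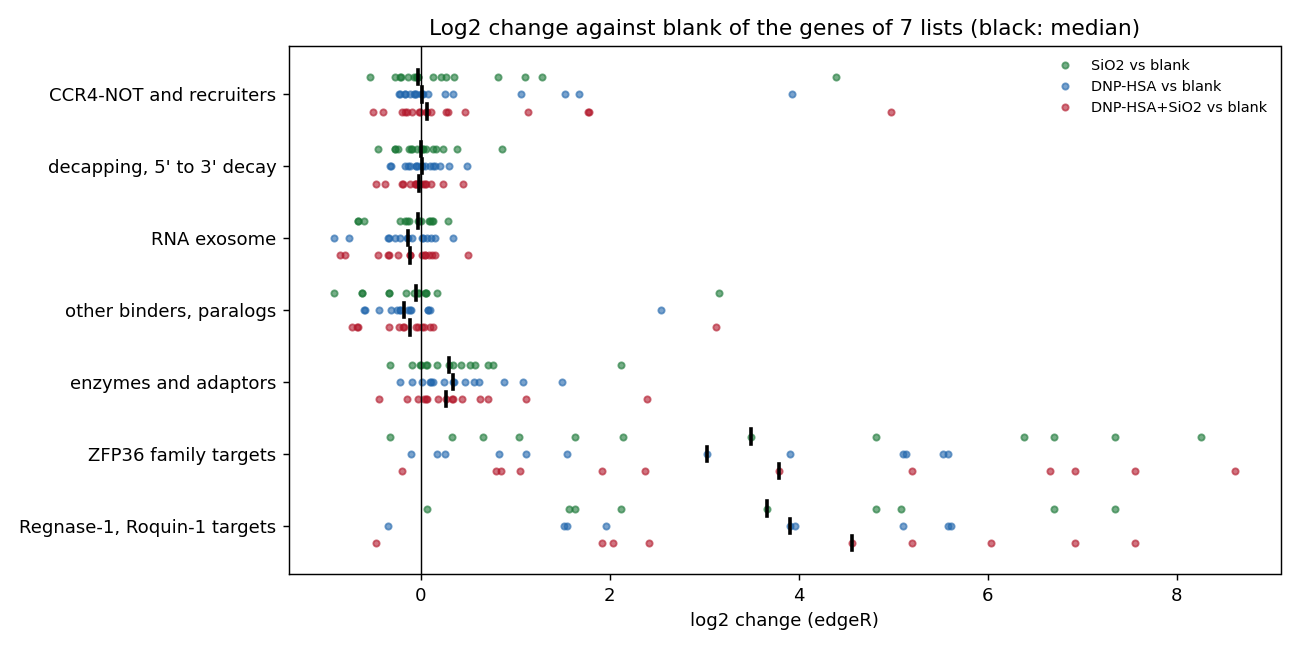
Log2 change against blank of the tested genes of the 7 lists in SiO2, DNP-HSA and DNP-HSA+SiO2, 1 point per gene, with the list median in black (Il3 counts in the median but is not drawn). The medians of the decay machinery lists lie between -0.14 and 0.07, and those of both target lists between 3.03 and 4.56.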

How the data were processed

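RNA sequencing (paired 150-base reads of poly(A) RNA from a kit that marks strand) covered 12 libraries of mouse BMMCs. Per the submitters' notes, reads were handled with HISAT2 2.0.4, StringTie 1.3.4d and cutadapt 1.9, and edgeR and DESeq2 are listed too; their genome build is not stated there or in the paper. The deposited table holds FPKM and estimated counts per isoform as the authors computed them. The estimated counts were FPKM times length on a library scale (98.1% to 98.6% within 1 of it) and 33.7% to 37.6% of low values were multiples of 4, so they are not independent reads. Of its coordinates, 99.1% equalled GENCODE M21 (GRCm38), which gave exons, 3′ UTRs and overlapping genes. Intervals cover the spread between libraries.

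Isoform values were summed per gene. Genes with at least 1 FPKM in 3 libraries (12862) were tested on rounded estimated counts with edgeR 4.0.16 (R 4.3.3; TMM scaling, quasi-likelihood F-test, two-sided, 4 groups in 1 model), with Benjamini-Hochberg adjustment and a threshold of 0.05. The standard error is the log2 change over the root of F. Alternatives were edgeR with DESeq2 size factors, DESeq2 1.42.0, limma 3.58.1 on log2(FPKM + 1) or + 0.1, other filters and settings, replicate blocks and leaving out libraries; those for genes of the lists were added after the data were seen. Equal numbers were treated as pairs for blank with SiO2 (correlations of deviations 0.616, 0.641 and 0.614) and DNP-HSA with DNP-HSA+SiO2 (0.493, 0.651 and 0.259), not across these pairs of groups. The test was checked on simulated counts for SiO2 against blank. At an adjusted p under 0.05 by edgeR it recovered 6 of 66 genes with a log2 change of 1, either way. It recovered 44 of 67 with a change of 2 and 65 of 67 with 4, and called 6 of 12662 unchanged genes. Most changes of 1 were thus missed there, so a member that did not pass is not shown to be unchanged.

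Members are described in full. For each, the 5 genes most like it by Pearson's r are named, with provisional symbols left out. From each list the text names the genes that passed or, where none did, the 2 with the largest change against blank; Exosc3 was named after its values were seen. Members and lists were chosen with earlier results of these data known. Promoters are from RefSeq (GRCm38.p6), with entries for 5 of 6 members.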

Additional observations from a re-analysis of the deposited data

How the results depend on the processing

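Over 438 values of the members under alternative settings, 396 kept direction and side of the threshold, 10 passed in addition and 32 changed sign. No member passed in the main fit, so no call could be lost. With each of 12 libraries left out in turn, 476 kept both, 2 passed in addition and 26 changed sign. Members that passed, 0 by edgeR, were 1, 2 and 3 by DESeq2 in SiO2, DNP-HSA and DNP-HSA+SiO2 against blank. In DNP-HSA+SiO2 against blank 1 passed, Zfp36l1, with either limma fit, with a minimum of 5 FPKM and with a replicate block over all 12 libraries (adjusted p 0.0392). With that minimum 94 of 8971 genes passed higher and 2 lower, and with that block 94 of 12862 higher and 7 lower. Leaving out single libraries gave 0 to 1 in DNP-HSA and 0 to 1 in DNP-HSA+SiO2 against blank, and the cause was not tested. Both calls came without SiO2 unnumbered, where 74 and 173 of all 12862 genes passed higher and 5 and 26 lower. A replicate block within the 2 pairs of groups changed no call. It was fitted only for SiO2 against blank, DNP-HSA+SiO2 against DNP-HSA and the interaction. Across these pairs of groups the numbers do not pair the libraries: equal numbers 1 or 2 deviated together with r of -0.276 to 0.186 (8 pairs of libraries), number 1 with number 2 with 0.468 to 0.653 (8) and the unnumbered with 0.499 to 0.827 (4). What the numbers stand for is not stated, so no fit exchanged them, and the block over all 12 libraries joins libraries that share only a number.

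Sign changes without the 4 unnumbered libraries, as log2 change, were: in DNP-HSA+SiO2 against DNP-HSA -0.24 for Zfp36, -0.078 for Zfp36l1, -0.023 for Zfp36l2 and 0.24 for Zc3h12a, against SiO2 -0.054 for Zfp36 and 0.30 for Rc3h1, in DNP-HSA against SiO2 0.18 for Zfp36 and 1.21 for Rc3h1, and for the interaction 0.20 for Zc3h12a and 0.55 for Rc3h1. With limma on FPKM plus 1 (plus 0.1 in parentheses) they were -0.012 (-0.0098) for Zc3h12a in SiO2, -0.066 (-0.073) for Elavl1 in DNP-HSA and -0.083 (-0.091) in DNP-HSA+SiO2 against blank; -0.017 (-0.017) for Zfp36l2, 0.071 (0.075) for Rc3h1 and -0.017 (-0.018) for Elavl1 in DNP-HSA+SiO2 against DNP-HSA; and for Rc3h1 0.18 (0.20) in DNP-HSA+SiO2 and 0.11 (0.13) in DNP-HSA against SiO2 and 0.31 (0.34) for the interaction. Without a filter Zfp36 was at 0.033 in DNP-HSA against SiO2. The replicate block over 12 libraries put Rc3h1 at 0.037 in DNP-HSA against SiO2 and 0.090 for the interaction, and the block within pairs put that interaction at 0.42.

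Single libraries turned the sign for Zc3h12a (-0.14 to 0.37) and Rc3h1 (-1.37 to 0.13) in SiO2 against blank. In DNP-HSA+SiO2 against DNP-HSA the ranges were -0.41 to 0.58 for Zfp36, -0.22 to 0.52 for Zfp36l1, -0.060 to 0.21 for Zfp36l2, -0.44 to 0.18 for Zc3h12a and -0.65 to 0.24 for Rc3h1, and against SiO2 -0.41 to 0.61 for Zfp36 and -0.92 to 0.57 for Rc3h1. In DNP-HSA against SiO2 they were -0.30 to 0.37 for Zfp36, -0.048 to 0.99 for Zfp36l1 and -0.77 to 0.96 for Rc3h1, and for the interaction -0.61 to 0.052 for Zc3h12a and -0.50 to 0.98 for Rc3h1. Differences between treated groups were therefore not resolved by these fits with 3 libraries a group. The main fit held no replicate term. With the block within pairs, 293 genes instead of 83 had an unadjusted p under 0.05 by edgeR in DNP-HSA+SiO2 against DNP-HSA, and none passed.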
